A study of Rattus norvegicus with 6 samples.

Results

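Rat hearts labelled as being under TAC were compared with rat hearts labelled as normal, gene by gene, on 4 of the 6 microarrays of the series. TAC, transverse aortic constriction, is a surgical narrowing of the aorta that makes the left ventricle pump against a raised resistance. The comparison held 2 arrays of normal hearts and 2 arrays of hearts under TAC, and its members were all 23188 rows of the array that are not control rows. Of these, 15049 rows carried 1 gene symbol and stood for 15037 genes. In 4627 genes the brighter of the 2 groups lay above background, which here means that its mean exceeded the 95th percentile of the negative control rows, averaged over its own 2 arrays. The other 2 arrays, from hearts released from TAC (TAC-R), entered the model as a further group and are not described.

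The animals were male Sprague-Dawley rats, 10 weeks old, with no genetic change named. For TAC a silk thread was tied around the transverse aorta over a 21-gauge blunt needle, which was then withdrawn. The protocol in the labels also speaks of control rats operated on without the tie, and the normal hearts are not said to come from those rats. The sources used here give no time under TAC. Nor do they state that the paired arrays of a group are from different animals. If they are not, the p-values reflect technical spread alone. One field of the labels, on RNA isolation, speaks of cultured fibroblasts, whereas the others speak of whole heart. The defining transcripts of heart muscle were at the top of the scale: Actc1, Myl3, Tpm1, Atp2a2 and Pln, which encode proteins of the contractile apparatus and of calcium reuptake, were at the ceiling of 19.93 log2 units on all 4 arrays. No difference can be measured for such genes. The gene lists below still count them as above background at a difference of 0.00, which can draw a list median towards 0. There are 2 of them in the calcium list and 2 in the filament list. The natriuretic and fetal list and the mitochondrial carrier list hold 1 each.

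A pressure-loaded ventricle thickens its muscle cells. Such cells are known for secreting the natriuretic peptides Nppa and Nppb, for turning back to transcripts of the fetal heart such as the slow myosin Myh7 and the skeletal actin Acta1, for using less fat and more glucose, and for a growth of collagen between them. These programmes order the account below, which then turns to interferon-induced genes, red cell genes and early response genes. All levels are log2 signals, so that a step of 1 is a doubling of signal, and each difference is TAC minus normal with the standard error of limma's model. A gene was called when its p, adjusted over all rows by the Benjamini-Hochberg method, was under 0.05. The words rose and fell are kept for called genes. In whole-heart RNA, fewer cells of a type and less RNA per cell cannot be told apart.

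On the arrays labelled TAC, 5 of 16 listed red cell genes and 2 of 9 listed interferon-induced genes above background rose, as did the ketone body enzyme Bdh1, the mitochondrial carrier Ucp2, the glycolytic enzyme Eno1 and the lipid carrier Apoe, while the natriuretic peptide Nppb, the slow myosin Myh7, the M-band protein Myom2 and the early response factor Egr1 fell. Of the 23188 rows, 59 were called (0.254%), 44 of them higher (0.19%) and 15 lower (0.0647%). Of the 4627 genes above background, 24 rose (0.519%) and 8 fell (0.173%). In 20 of these 32 genes at least 1 array of the dimmer group lay above its own control percentile, and in Cryl1 and Iqcm only 1 did. In the other 12 both normal arrays were within background, so that only a lower bound of the fold could be given, taken against the 95th percentile of the negative controls.

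Beyond the calls, the genes above background were tilted towards the TAC arrays. The median difference was 0.00 over all rows but 0.11 over the 4627 genes above background, of which 65.1% were higher on the TAC arrays. In 36.0% of them both TAC arrays lay above both normal arrays, and in 15.8% both lay below. Such non-overlap is therefore common here, and every gene list below is to be read against these shares and against the median of 0.11. Genes with 1 group in background entered this set through the other group alone, which partly sets the side on which they lie. Choosing genes by the mean of the 4 arrays in place of the brighter group gave 4390 genes, with a median difference of 0.09 and 62.7% higher. The 95th percentile of the negative controls was itself lower on the TAC arrays, at 8.22 and 8.12 against 8.45 and 8.55. Just inside the threshold were Tent5c and Ddx47, with TAC means of 8.17 and 8.171 against 8.17 and differences of 1.41 and 0.24. Just outside it were Ecm1, with a TAC mean of 8.169 and a difference of 0.35, and Brpf1, with a normal mean of 8.496 against 8.497 and a difference of -0.17. Of the 44 list medians, 24 lay within 0.2 of 0. Leaving out 1 array moved these 24 by up to 0.13 and turned the sign of 9.

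The calls rested on few arrays. Without TAC replicate 2, limma called 0 rows, with 2025 rows at an unadjusted p under 0.05, against 2393 with all arrays. Without TAC replicate 1, normal replicate 1 or normal replicate 2 it called 12, 7 and 13 rows, and without either TAC-R array 35. Of the 32 called genes above background, Alas2, Bdh1 and Egr1 were called in 5 of the 6 fits that left out 1 array, and 12 genes in none of them. Of these 6 fits, 2 left out a TAC-R array and kept every normal and TAC array. For this contrast both are the same as a fit of the normal and TAC arrays alone. A call in them does not show that a gene passes without 1 of the arrays compared. All 32 kept their direction in every fit. The smallest two-sided p that an exact permutation of 2 arrays against 2 allows is 0.33, and each call therefore leans on the spread that limma pools over rows.

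**Figure D1:**
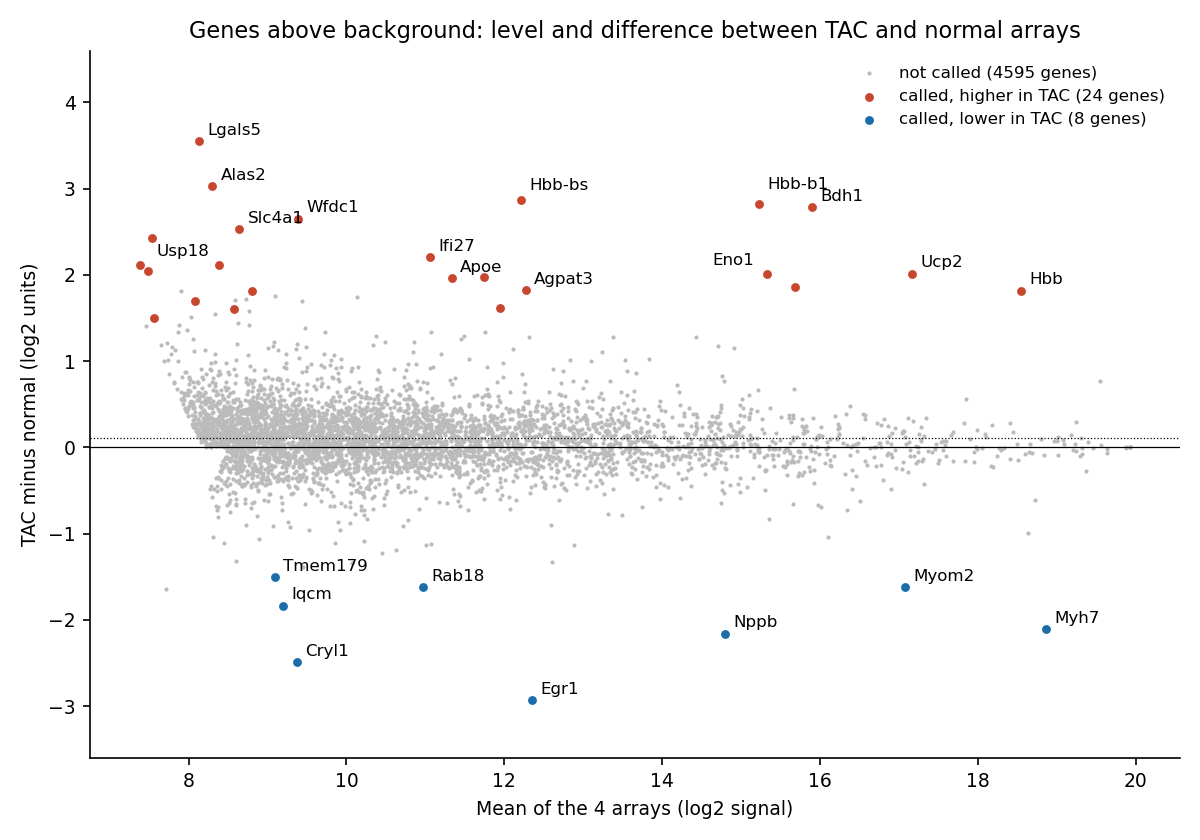
Each point is 1 of the 4627 genes above background. The x axis gives the mean log2 signal of the 2 normal and 2 TAC arrays and the y axis the difference TAC minus normal in log2 units, with the median of 0.11 as a dotted line. The 24 genes that rose are in red and the 8 that fell in blue. Bdh1, Ucp2 and Hbb rose at high signals, and Egr1, at -2.93, was the lowest of all points.

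Short stretches of promoter are shown first for genes on which the results turn, since the interferon-induced, natriuretic and red cell genes are each known for a short motif close to the start of transcription. The stretches are from RefSeq, assembly GRCr8, and all lie before the annotated start. They are printed on the gene's own strand, with the motif in capitals. For interferon-induced genes the motif is GAAA repeated after any 2 bases, the core of the interferon-stimulated response element, which may stand on either strand. For Acta1 the capitals mark a CArG box, the site of serum response factor, and CATTCC, the MCAT element known from muscle genes. For Nppb they mark CATTCC on the other strand and AGATAA, a site of GATA factors, and for Alas2 they mark AGATAA.
Ifi27 (chr6:128355123-128355257, plus strand): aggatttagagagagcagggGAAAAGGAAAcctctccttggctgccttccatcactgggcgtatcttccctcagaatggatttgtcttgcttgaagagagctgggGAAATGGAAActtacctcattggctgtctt
Rsad2 (chr6:48788238-48788287, minus strand): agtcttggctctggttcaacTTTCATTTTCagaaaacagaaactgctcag
Gbp2 (chr2:234005676-234005725, plus strand): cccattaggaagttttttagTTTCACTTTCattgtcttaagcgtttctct
Ifitm3 (chr1:205541773-205541822, minus strand): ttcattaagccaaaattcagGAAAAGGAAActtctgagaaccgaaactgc
Irf7 (chr1:205800063-205800112, minus strand): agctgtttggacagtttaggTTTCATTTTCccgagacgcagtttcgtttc
Nppb (chr5:163699857-163699923, plus strand): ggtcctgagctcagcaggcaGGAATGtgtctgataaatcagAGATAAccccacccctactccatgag
Acta1 (chr19:68784236-68784308, minus strand): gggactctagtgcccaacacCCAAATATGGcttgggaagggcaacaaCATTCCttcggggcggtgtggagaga
Alas2 (chrX:22895294-22895339, plus strand): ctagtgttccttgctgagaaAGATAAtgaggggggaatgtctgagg

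The windows searched ran from 250 bases before to 50 bases after the start, on both strands, and 33469 of them were in the RefSeq table. The repeated GAAA was in 3.92% of all windows and in 15 of the 21 measured interferon-induced genes with a window (71.4%). AGATAA was in 11.6% of all windows and in 5 of the 17 measured red cell and haem genes with a window (29.4%). Among natriuretic and fetal genes AGATAA, marked above for Nppb, was in 1 of 10 (10.0%), no more than in all windows. CATTCC was in 14.2% of all windows, in 3 of 10 natriuretic and fetal genes (30.0%) and in 4 of 17 red cell genes (23.5%). The CArG box was in 1.64% of all windows and in 4 of 21 early response genes (19.0%). These are matches of letters. They say nothing on whether a factor was bound in these hearts.

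The natriuretic peptides and the fetal heart genes were low on the arrays labelled TAC, the opposite of the direction for which pressure load is known. Of 15 genes listed, 13 were measured and 11 were above background, of which 2 fell and 0 rose. The TAC arrays lay below both normal arrays in 6 of the 11 and above in 2, with a median difference of -0.61, and 0.00 over all 13 measured. The labels were taken as given, and every sign here rests on them. Nppb, the B-type natriuretic peptide, which stretched heart muscle secretes to unload the circulation, had 16.05 and 15.72 on the normal arrays and 13.57 and 13.88 on the TAC arrays. The groups were far apart, and Nppb fell by 2.16 ± 0.24 log2 units, 4.47-fold (limma, adjusted p = 0.0118). Nppa, the A-type peptide, had 9.97 and 10.32 on the normal arrays and 8.60 and 8.92 on the TAC arrays. Its arrays did not overlap either, but its difference of -1.38 ± 0.63 did not pass (limma, adjusted p = 0.492). The model pools the error over all 6 arrays. Both pairs of arrays given here lie close together, and the wide error comes mainly from the TAC-R arrays. Nor was Nppa called in the fit of the normal and TAC arrays alone.

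The contractile fetal genes ran the same way. Myh7, the slow myosin heavy chain that dominates the fetal rat ventricle, had 19.91 and 19.93 on the normal arrays and 17.87 and 17.77 on the TAC arrays. It fell by 2.11 ± 0.20 log2 units, 4.3-fold (limma, adjusted p = 0.00627), and since 1 normal array was at the ceiling this is a lower bound. Acta1, the skeletal alpha-actin, had 19.17 and 19.09 on the normal arrays and 17.98 and 18.29 on the TAC arrays, a difference of -0.99 ± 0.22 that did not pass (limma, adjusted p = 0.18). Below the normal arrays without passing were also Xirp2, a protein of the intercalated disc and the costamere, at -0.83 ± 0.21, and Ankrd1, a stretch-responsive ankyrin repeat protein, at -0.61 ± 0.21.

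None of the listed genes that process or bind the natriuretic peptides was called. Corin, the protease on heart muscle cells that cuts the precursor of Nppa, had 11.36 and 10.82 on the normal arrays and 12.55 and 12.30 on the TAC arrays. Its arrays did not overlap, with a difference of 1.33 ± 0.26 that did not pass (limma, adjusted p = 0.123). Furin, which cuts the precursor of Nppb, differed by 0.38 ± 0.26 with overlapping arrays. The clearance receptor Npr3 had the normal arrays far apart, at 7.79 and 9.21, around TAC values of 9.15 and 8.65. Of its normal arrays, 1 lay in background. The signalling receptors Npr1 and Npr2 were within background on all 4 arrays.

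Atrial tissue is a source of Nppa, and its markers were looked at for that reason. Of the 6 atrial markers, only Nppa was above background, and Myl7, Myl4, Sln, Nr2f1 and Bmp10 were below it on all 4 arrays. The 6 markers, Nppa among them, summed to 10.45 and 10.73 log2 units on the normal arrays and 9.27 and 9.47 on the TAC arrays. Nppa makes up most of that sum, which is therefore no separate measure of atrial tissue. The part of atrial tissue in the difference of Nppa was not tested. The markers of heart muscle cells summed to between 22.39 and 22.42 log2 units on all 4 arrays, several of them being at the ceiling.

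**Figure D2:**
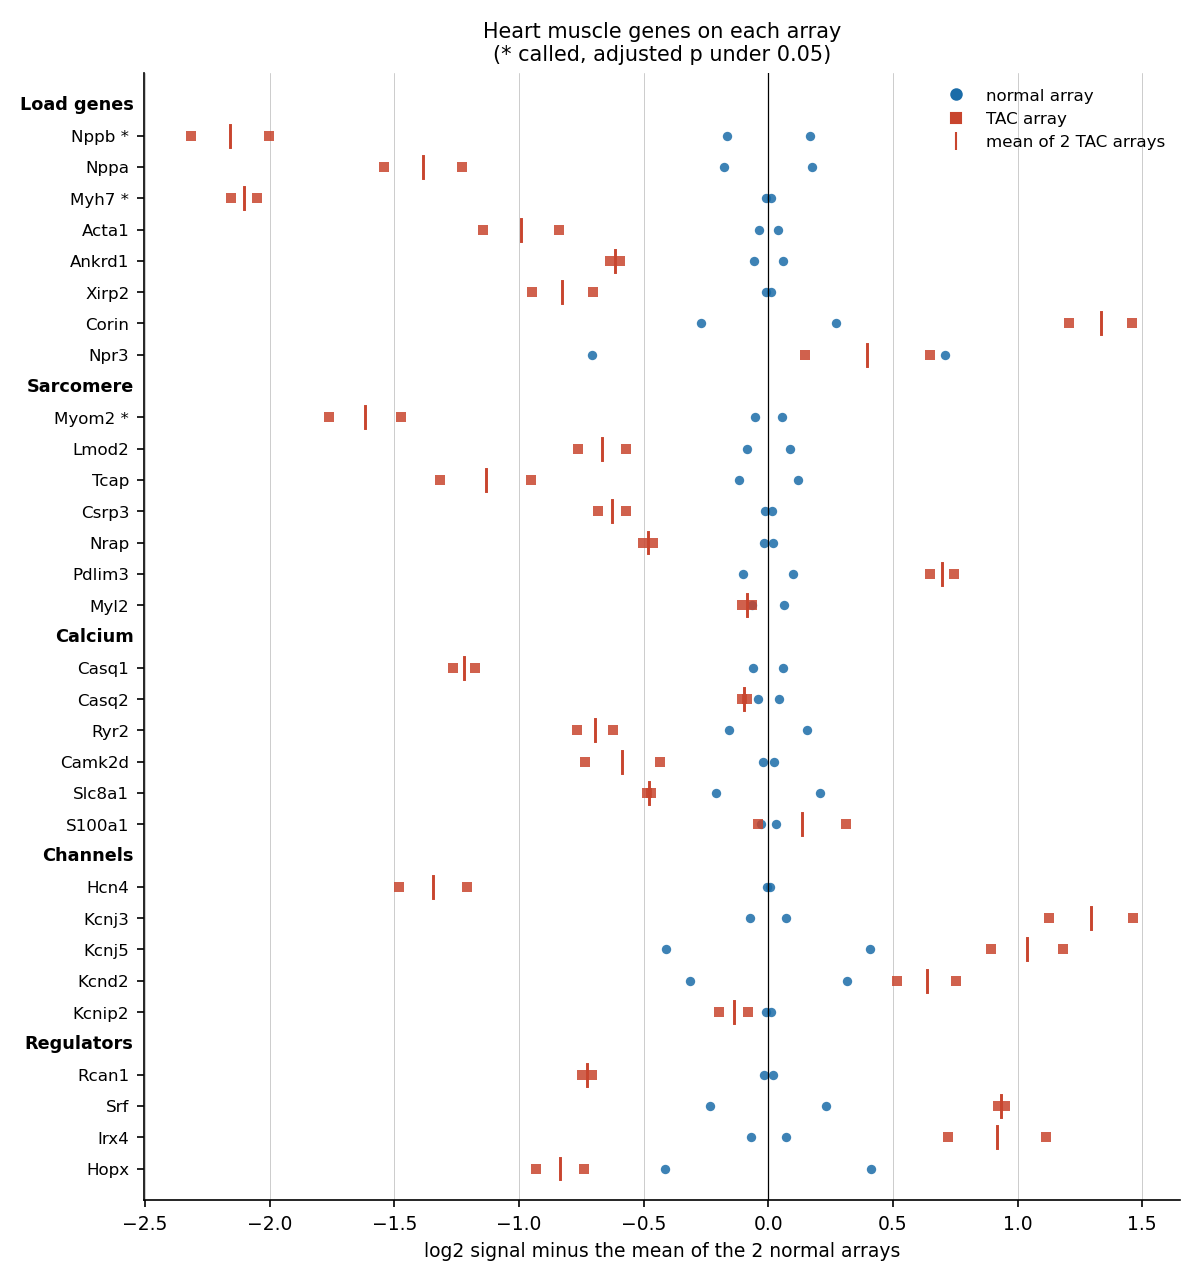
Each row is a gene, and the x axis gives the log2 signal of each array minus the mean of the 2 normal arrays. Blue circles are normal arrays, red squares are TAC arrays, the red bar is the mean of the 2 TAC arrays, and an asterisk marks a called gene. Nppb, Myh7 and Myom2 are called and lie far to the left, Corin and Kcnj3 lie to the right without being called, and Casq2 and Myl2 lie near 0.

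In the sarcomere itself 1 protein gene stood out from a list with a median near 0. Of 24 listed genes of the thick and thin filaments and their regulators, 13 of 18 measured were above background, of which 1 fell and 0 rose, with a median of -0.09. Myom2, an M-band protein that cross-links thick filaments, had 17.84 and 17.95 on the normal arrays and 16.42 and 16.13 on the TAC arrays. The fall was 3.07-fold, with a difference of -1.62 ± 0.22 (limma, adjusted p = 0.0233). Its relative Myom1 differed by -0.41 ± 0.22 and Lmod2, which elongates thin filaments, by -0.67 ± 0.21, neither passing, although neither overlapped.

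The bulk filament proteins had small differences. Tnnt2 and Tnni3, troponin subunits of the adult heart, differed by -0.01 ± 0.20 and 0.00 ± 0.20 just under the ceiling, where little difference can show. The ventricular light chain Myl2 had overlapping arrays, at -0.09 ± 0.21, and Mybpc3, the cardiac myosin-binding protein, was at -0.23 ± 0.21.

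At the Z-disc and the costamere, where force is passed sideways and load is sensed, 17 of 21 measured genes were above background and none was called, with a median of -0.04. Tcap, the titin cap, had 11.45 and 11.69 on the normal arrays and 10.25 and 10.62 on the TAC arrays. That difference of -1.13 ± 0.24 did not pass (limma, adjusted p = 0.162). Csrp3, a muscle LIM protein, and Nrap lay below without overlap, at -0.63 ± 0.21 and -0.48 ± 0.21, and Pdlim3 lay above, at 0.70 ± 0.25. Of the 17 genes above background of the intercalated disc, which joins heart muscle cells, none was called. The cadherin Cdh2 was the farthest from 0, with 14.50 and 14.31 on the normal arrays and 15.13 and 15.21 on the TAC arrays and a difference of 0.77 ± 0.21. Itga6, a laminin receptor subunit outside these lists, had 13.03 and 13.50 on the normal arrays and 11.99 and 11.89 on the TAC arrays, a difference of -1.33 ± 0.23 that did not pass (limma, adjusted p = 0.0895).

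Calcium release and uptake genes had a median of -0.06 over 16 genes above background, and none was called. Casq1, the calsequestrin of fast skeletal muscle, had 10.996 and 11.12 on the normal arrays and 9.79 and 9.88 on the TAC arrays, a difference of -1.22 ± 0.21 (limma, adjusted p = 0.0746). Its cardiac counterpart Casq2 differed by only -0.10 ± 0.20. Ryr2, the calcium release channel, lay below at -0.70 ± 0.22, Camk2d, the calcium-dependent kinase, at -0.59 ± 0.22 and the sodium-calcium exchanger Slc8a1 at -0.48 ± 0.23. All 3 had TAC arrays below both normal arrays and none passed. For Atp2a2 and Pln, the pump and its brake, nothing can be said at the ceiling.

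Among ion channels none was called, and the largest differences were of atrial and pacemaker kinds. Hcn4, the pacemaker channel, had 10.74 and 10.73 on the normal arrays and 9.53 and 9.26 on the TAC arrays, a difference of -1.34 ± 0.31 (limma, adjusted p = 0.194). Kcnj3 and Kcnj5 form the acetylcholine-gated potassium channel and leaned the other way. Kcnj3 had 10.92 and 10.78 on the normal arrays and 12.31 and 11.98 on the TAC arrays, a difference of 1.295 ± 0.23 (limma, adjusted p = 0.0902). Kcnj5 differed by 1.04 ± 0.29, with 1 normal array in background. The transient outward channel subunit Kcnd2 differed by 0.63 ± 0.28, with 1 normal array in background, and its partner Kcnip2 by -0.14 ± 0.22. The potassium channels had a median of 0.28 over 10 genes above background, and 0.15 when genes with 1 group in background were set at their bound. It was 0.06 without normal replicate 2 and 0.07 over all 20 measured. The sodium, calcium and pacemaker channels had -0.13 over 8, and -0.01 without TAC replicate 1. Irx4, a transcription factor of the ventricle listed with the latter, differed by 0.92 ± 0.24. The connexin Gja1, at 0.08 ± 0.22, had overlapping arrays.

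Receptors and their kinases showed no called gene. In 16 adrenergic and muscarinic signalling genes above background the median was 0.15. The alpha receptor Adra1b lay below without overlap, at -0.60 ± 0.22, while the beta receptor Adrb1 differed by 0.13 ± 0.24 and the muscarinic receptor Chrm2 by -0.08 ± 0.23. Of the angiotensin and endothelin genes only 2 of 9 measured were above background. They were the mineralocorticoid receptor Nr3c2, at 0.34 ± 0.25, and Ece1, which makes endothelin, at 0.05 ± 0.26. The sign of Ece1 was negative under 3 of the alternative settings.

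The transcription factors of the heart had a median of 0.24 over 23 genes above background, none of them called, and 0.08 without normal replicate 2. Srf, the factor that binds CArG boxes, had 10.85 and 10.39 on the normal arrays and 11.57 and 11.55 on the TAC arrays, a difference of 0.94 ± 0.25 (limma, adjusted p = 0.27). Its partner Myocd lay the other way, at -0.50 ± 0.24. Rcan1, which is induced by calcineurin and so is read as a gauge of that pathway, had 16.69 and 16.73 on the normal arrays and 16.0 and 15.96 on the TAC arrays, a difference of -0.73 ± 0.20 with no overlap. Hopx was at -0.84 ± 0.29, Nkx2-5 at 0.63 ± 0.29 and Tbx5 at 0.51 ± 0.22, all without overlap, whereas Gata4, at 0.20 ± 0.24, overlapped.

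Fuel genes held 3 of the called rises, each from a pathway whose median lay close to that of all genes. Bdh1, the mitochondrial enzyme that starts the use of ketone bodies, had 14.65 and 14.37 on the normal arrays and 17.42 and 17.17 on the TAC arrays. It rose by 2.79 ± 0.22 log2 units, 6.9-fold (limma, adjusted p = 0.00341). Oxct1, the next enzyme of ketone body use, had overlapping arrays and a difference of -0.10 ± 0.21. Over the 19 ketone body and branched-chain amino acid genes above background, 1 rose and 0 fell, and the median was 0.15. Acadsb, of branched-chain and short-chain acyl oxidation, lay above at 0.998 ± 0.27, Mccc2 below at -0.46 ± 0.24 and Bckdha below at -0.43 ± 0.21.

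Ucp2, a carrier of the mitochondrial inner membrane that is tied to fatty acid use, had 16.15 and 16.18 on the normal arrays and 18.22 and 18.14 on the TAC arrays. It rose by 2.02 ± 0.24 log2 units, 4.04-fold (limma, adjusted p = 0.0143). Its muscle relative Ucp3 had 7.47 and 6.94 on the normal arrays and 8.39 and 8.35 on the TAC arrays, a difference of 1.17 ± 0.24 that did not pass, with the normal arrays in background. Of 44 listed genes of fatty acid uptake and oxidation, 40 were above background, of which 1 rose and 0 fell. In 24 of the 40 the TAC arrays lay above both normal arrays and in 5 below, yet the median of 0.12 was close to that of all genes. Acot2, a thioesterase of mitochondrial acyl-CoA, had 13.84 and 13.74 on the normal arrays and 14.87 and 15.27 on the TAC arrays, a difference of 1.28 ± 0.23 (limma, adjusted p = 0.101), and the fatty acid transporter Slc27a1 differed by 1.22 ± 0.24 (limma, adjusted p = 0.121).

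The main enzymes of fat burning had smaller differences, none of which passed. Cpt1b, which admits long-chain fatty acids into mitochondria, had overlapping arrays at 0.06 ± 0.21, and so had the fatty acid binding protein Fabp3 at 0.03 ± 0.21. The dehydrogenases Acadm and Acadl differed by -0.09 ± 0.20 and -0.14 ± 0.21, and Hadh by 0.57 ± 0.21. Pdk4, the kinase that holds back glucose oxidation, differed by 0.06 ± 0.21. The regulators Ppara and Ppargc1a were at 0.39 ± 0.25 and -0.01 ± 0.21.

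Eno1, the enolase outside adult muscle, had 14.50 and 14.13 on the normal arrays and 16.23 and 16.43 on the TAC arrays. It rose by 2.02 ± 0.23 log2 units, 4.04-fold (limma, adjusted p = 0.0118). Eno3, the enolase of muscle, had overlapping arrays at 0.03 ± 0.24. Among 28 genes of glycolysis, glycogen and glucose uptake above background, Eno1 alone was called, and the median was 0.08. The glucose carriers Slc2a4 and Slc2a1, the insulin-dependent and the basal one, differed by 0.22 ± 0.22 and -0.26 ± 0.28, and the kinase Hk1 by -0.34 ± 0.22, none passing. Gapdh and Ldha were at 0.07 ± 0.21 and -0.01 ± 0.21.

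The citric acid cycle and the respiratory chain had medians next to 0. Over 17 cycle genes above background the median was -0.01, with values from -0.31 to 0.27. Over 35 genes of the respiratory chain and ATP synthase it was also -0.01, from -0.54 to 0.34, and none was called in either list. At the low end was cytochrome c, Cycs, with 13.47 and 13.60 on the normal arrays and 13.11 and 12.88 on the TAC arrays and a difference of -0.54 ± 0.21. Citrate synthase Cs and the synthase subunit Atp5f1a differed by 0.07 ± 0.21 and -0.01 ± 0.20. The 18 mitochondrial carrier and creatine genes above background had a median of 0.12 with none called. Among them Tfam, a factor that packs mitochondrial DNA, lay below without overlap at -0.62 ± 0.23, and the brain-type creatine kinase Ckb lay above at 0.85 ± 0.28.

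Redox genes held 1 large difference, in Txnip, a glucose-responsive inhibitor of thioredoxin. Txnip had 16.61 and 16.64 on the normal arrays and 15.68 and 15.50 on the TAC arrays, a difference of -1.04 ± 0.22 with no overlap that did not pass (limma, adjusted p = 0.158). The extracellular dismutase Sod3 lay above, at 0.83 ± 0.34, and the median over 24 redox genes above background was 0.05, with none called.

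Lipid handling held 2 rises. Apoe, the carrier of cholesterol that macrophages and other cells secrete, had 10.23 and 10.47 on the normal arrays and 12.34 and 12.28 on the TAC arrays. It rose by 1.97 ± 0.22 log2 units, 3.91-fold (limma, adjusted p = 0.0119). Agpat3, an acyltransferase of phospholipid synthesis, had 11.60 and 11.13 on the normal arrays and 13.31 and 13.06 on the TAC arrays and rose 3.54-fold (limma, adjusted p = 0.0224). Over the 16 genes of lipid and retinoid handling above background, 10 had TAC arrays above both normal arrays and 0 below, with a median of 0.34. Lipe, hormone-sensitive lipase, was at 0.80 ± 0.21 and the desaturase Fads1 at 0.76 ± 0.26, the latter with 1 normal array in background, neither passing.

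Enzymes of lipid mediators were mostly too dim to measure. Only 3 of 22 measured were above background. Ephx2, soluble epoxide hydrolase, which breaks down vasodilator epoxides of arachidonic acid, had 6.21 and 6.43 on the normal arrays and 8.84 and 8.67 on the TAC arrays. It was at least 1.19-fold higher, with the normal arrays in background (limma, adjusted p = 0.0149). Cyp4v3, a fatty acid hydroxylase, was in no list. It had 7.81 and 7.99 on the normal arrays and 9.58 and 9.85 on the TAC arrays and was at least 2.32-fold higher (limma, adjusted p = 0.0227).

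Matrix genes leaned upwards on the arrays labelled TAC, but none above background was called. Of 29 listed genes for collagens and their processing, 12 of 21 measured were above background, of which 11 had TAC arrays above both normal arrays and 0 below. Their median difference was 0.90, and 0.255 with the 5 genes whose normal arrays lay in background set at their bound, or 0.23 over all 21 measured. Those 5 passed the floor through the TAC arrays alone, so that their side was partly set by the filter. Col3a1, a fibrillar collagen, had 13.26 and 13.38 on the normal arrays and 14.46 and 14.22 on the TAC arrays, a difference of 1.02 ± 0.24 (limma, adjusted p = 0.207). Its partners of the fibril, Col1a1 and Col1a2, differed by 0.97 ± 0.28 and 0.90 ± 0.27 (limma, adjusted p = 0.311 and 0.327). In all 3 the groups did not overlap and the test was not passed.

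Around the fibrils, 23 of 41 measured matrix glycoproteins and proteoglycans were above background, with 16 above and 1 below without overlap and a median of 0.49. Prelp and Bgn, small proteoglycans that bind collagen, differed by 1.22 ± 0.39 and 1.11 ± 0.30, and Mgp, an inhibitor of calcification, by 1.02 ± 0.28. Fibronectin, Fn1, had 9.39 and 9.56 on the normal arrays and 10.39 and 10.40 on the TAC arrays, a difference of 0.93 ± 0.29 (limma, adjusted p = 0.36), and the protease Mmp2 differed by 0.93 ± 0.24. Dcn, an abundant product of fibroblasts, overlapped at 0.19 ± 0.24. The exception on the low side was Ccn1, a matrix protein of the early response, with 11.14 and 11.30 on the normal arrays and 10.13 and 9.93 on the TAC arrays and a difference of -1.19 ± 0.22 (limma, adjusted p = 0.103). Adamts1, a protease of the matrix that was in no list, had 9.24 and 9.28 on the normal arrays and 8.14 and 7.74 on the TAC arrays. With the TAC arrays in background it was at least 2.12-fold lower, without passing (limma, adjusted p = 0.079).

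Growth factors of fibroblasts and muscle leaned the same way. Of 13 above background, 12 lay above without overlap and 0 below, with a median of 0.49, or 0.29 without normal replicate 2, and none was called. Igf2 differed by 1.10 ± 0.39 and Pdgfa, a ligand that drives fibroblasts, by 1.12 ± 0.26, the latter with normal arrays in background. Its receptors Pdgfra and Pdgfrb differed by 0.74 ± 0.24 and 0.82 ± 0.34. The 14 TGF-beta and BMP signalling genes above background had a median of 0.03. Tgfb1 itself overlapped at 0.11 ± 0.33, with 1 normal array in background. Wfdc1, a secreted protein with a protease inhibitor fold that was in no list, had 8.40 and 7.71 on the normal arrays and 10.62 and 10.80 on the TAC arrays and was at least 4.63-fold higher (limma, adjusted p = 0.00737).

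The markers of fibroblasts summed to 17.35 and 17.01 log2 units on the normal arrays and 17.45 and 17.54 on the TAC arrays, 6 of the 7 measured being above the floor on all 4 arrays. Smooth muscle and pericyte markers summed to 15.45 on both normal arrays, and to 15.78 and 15.53 on the TAC arrays. The smooth muscle and pericyte list had a median of 0.26 over 13 genes above background, or 0.17 at the bound and 0.05 without TAC replicate 1, with none called. Tagln, a contractile protein of smooth muscle, had 7.99 and 7.97 on the normal arrays and 9.44 and 9.67 on the TAC arrays, at least 2.09-fold higher without passing (limma, adjusted p = 0.248), and Acta2, smooth muscle actin, differed by 0.58 ± 0.31. The part of these cells in the differences of matrix genes was not tested.

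Vessel genes had no common direction. Over 16 endothelial and angiogenic genes above background the median was 0.05, with 6 above and 6 below without overlap and none called. Kdr, the main receptor of vascular growth factor, differed by -0.39 ± 0.25 and Emcn, of capillaries and veins, by 0.61 ± 0.22. The endothelial markers summed to 16.47 and 16.36 on the normal arrays and 16.22 and 16.24 on the TAC arrays. Of 9 measured lymphatic genes 2 were above background, Prox1, a factor also found in heart muscle, at 0.52 ± 0.23 and Lyve1. Lyve1, a hyaluronan receptor of lymphatic vessels and of resident macrophages, had 8.76 and 8.30 on the normal arrays and 6.70 and 7.09 on the TAC arrays. With the TAC arrays in background it was at least 1.28-fold lower, just outside the threshold (limma, adjusted p = 0.0573). Ppp1r16b, a phosphatase regulator known from endothelium, was in no list. It had 7.72 and 7.83 on the normal arrays and 9.53 and 9.24 on the TAC arrays and was at least 1.85-fold higher (limma, adjusted p = 0.0491). Prkg1, the kinase that natriuretic peptides and nitric oxide activate through cyclic GMP, had 9.53 and 9.31 on the normal arrays and 8.29 and 8.43 on the TAC arrays, a difference of -1.06 ± 0.25 that did not pass.

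Interferon-induced genes were high on the arrays labelled TAC. Of 33 listed, 28 were measured but only 9 were above background. Of these 9, 2 rose, and all 9 had TAC arrays above both normal arrays. In 5 of the 9 both normal arrays lay in background. These 5 passed the floor through the TAC arrays alone, so that their side was partly set by the filter. The median of the 9 was 1.17, and 0.94 with these 5 at their bound. Over all 28 measured genes the median was 0.99.

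Ifi27, a small mitochondrial protein that type I interferon induces, had 10.27 and 9.64 on the normal arrays and 11.95 and 12.38 on the TAC arrays. It rose by 2.21 ± 0.27 log2 units, 4.62-fold (limma, adjusted p = 0.0165), and its promoter holds the motif at 2 places. Usp18, the protease that removes ISG15 from proteins and damps the interferon receptor, had 7.49 and 7.17 on the normal arrays and 9.53 and 9.38 on the TAC arrays. It was at least 1.94-fold higher (limma, adjusted p = 0.00818). Ifi27l2b, a relative of Ifi27 in no list, had 6.29 and 6.65 on the normal arrays and 8.79 and 8.23 on the TAC arrays and was at least 1.01-fold higher (limma, adjusted p = 0.0191). Probes of these relatives can bind each other's transcripts, so they are uncertain as separate genes.

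Other members missed the threshold on the same side. Gbp2, an interferon-induced GTPase, had 8.59 and 8.38 on the normal arrays and 9.88 and 9.44 on the TAC arrays, a difference of 1.17 ± 0.24 with 1 normal array in background (limma, adjusted p = 0.135). Ifitm3, which blocks viral entry, had 11.47 and 11.61 on the normal arrays and 12.59 and 12.78 on the TAC arrays, a difference of 1.14 ± 0.21 (limma, adjusted p = 0.103). Both promoters hold the motif, as does that of Rsad2, an antiviral enzyme, which was at least 1.06-fold higher without passing (limma, adjusted p = 0.135). Bst2, which tethers virus particles, had the smallest difference of the 9, at 0.23 ± 0.21.

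Among the called genes within background in both groups were further interferon genes, whose sizes are not measured. Irf7, the regulator of type I interferon, whose promoter stretch is shown above, had 5.32 and 5.42 on the normal arrays and 7.02 and 6.95 on the TAC arrays (limma, adjusted p = 0.0191). Mx1 of the list, and Oas1b, Oas2 and Slfn4 outside it, antiviral or interferon-induced genes, were called in the same direction (limma, adjusted p = 0.0309, 0.0119, 0.0154 and 0.0233). One listed gene leaned the other way within background. Ifit1 had 4.09 and 4.07 on the normal arrays and 2.53 and 3.08 on the TAC arrays and was not called (limma, adjusted p = 0.178).

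Lgals3bp and RT1-S3 were also called outside the list. Lgals3bp, a secreted glycoprotein that interferon induces, had 11.29 and 10.99 on the normal arrays and 12.82 and 12.71 on the TAC arrays and rose 3.07-fold (limma, adjusted p = 0.0491). RT1-S3, a rat class I histocompatibility gene, had 6.76 and 6.86 on the normal arrays and 8.35 and 8.27 on the TAC arrays and was called (limma, adjusted p = 0.0377), with no fold to be given. Of the 17 measured antigen presentation genes 4 were above background, with a median of 0.46, or 0.045 over all 17, and none called. B2m, the shared light chain of class I molecules, differed by 0.61 ± 0.24 and Tapbp, which loads them with peptide, by 0.94 ± 0.26, neither passing. For Tapbp 1 normal array lay in background. The complement genes had a median of 0.215 over 7 above background, with none called.

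Immune cell transcripts were dim throughout. Of 24 measured macrophage and monocyte genes 6 were above background, all with TAC arrays above both normal arrays and none called. Of these 6, 2 had normal arrays in background and passed the floor through the TAC arrays alone. The median of the 6 was 0.81, or 0.49 at the bound and 0.52 without normal replicate 2. Lyz2, lysozyme, had 11.09 and 10.85 on the normal arrays and 11.61 and 11.93 on the TAC arrays, a difference of 0.80 ± 0.29. The summed macrophage markers were 11.69 and 11.46 log2 units on the normal arrays and 12.14 and 12.38 on the TAC arrays, while the defining Cd68, Cd163, Csf1r and Adgre1 lay below the floor on all 4 arrays. The measured markers of lymphocytes and neutrophils were all below the floor. The part of immune cells in the interferon genes was not tested. Over 6 of 27 measured chemokines and cytokines the median was 0.31, with none called above background. It was 0.55 without TAC replicate 1, 0.21 without TAC replicate 2 and -0.03 over all 27. Cxcl12, a chemokine of stromal cells, had 14.22 and 14.02 on the normal arrays and 15.38 and 15.20 on the TAC arrays, a difference of 1.17 ± 0.29 (limma, adjusted p = 0.245), and Il33, an alarm signal released by injured cells, was at least 1.2-fold higher, without passing.

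**Figure D3:**
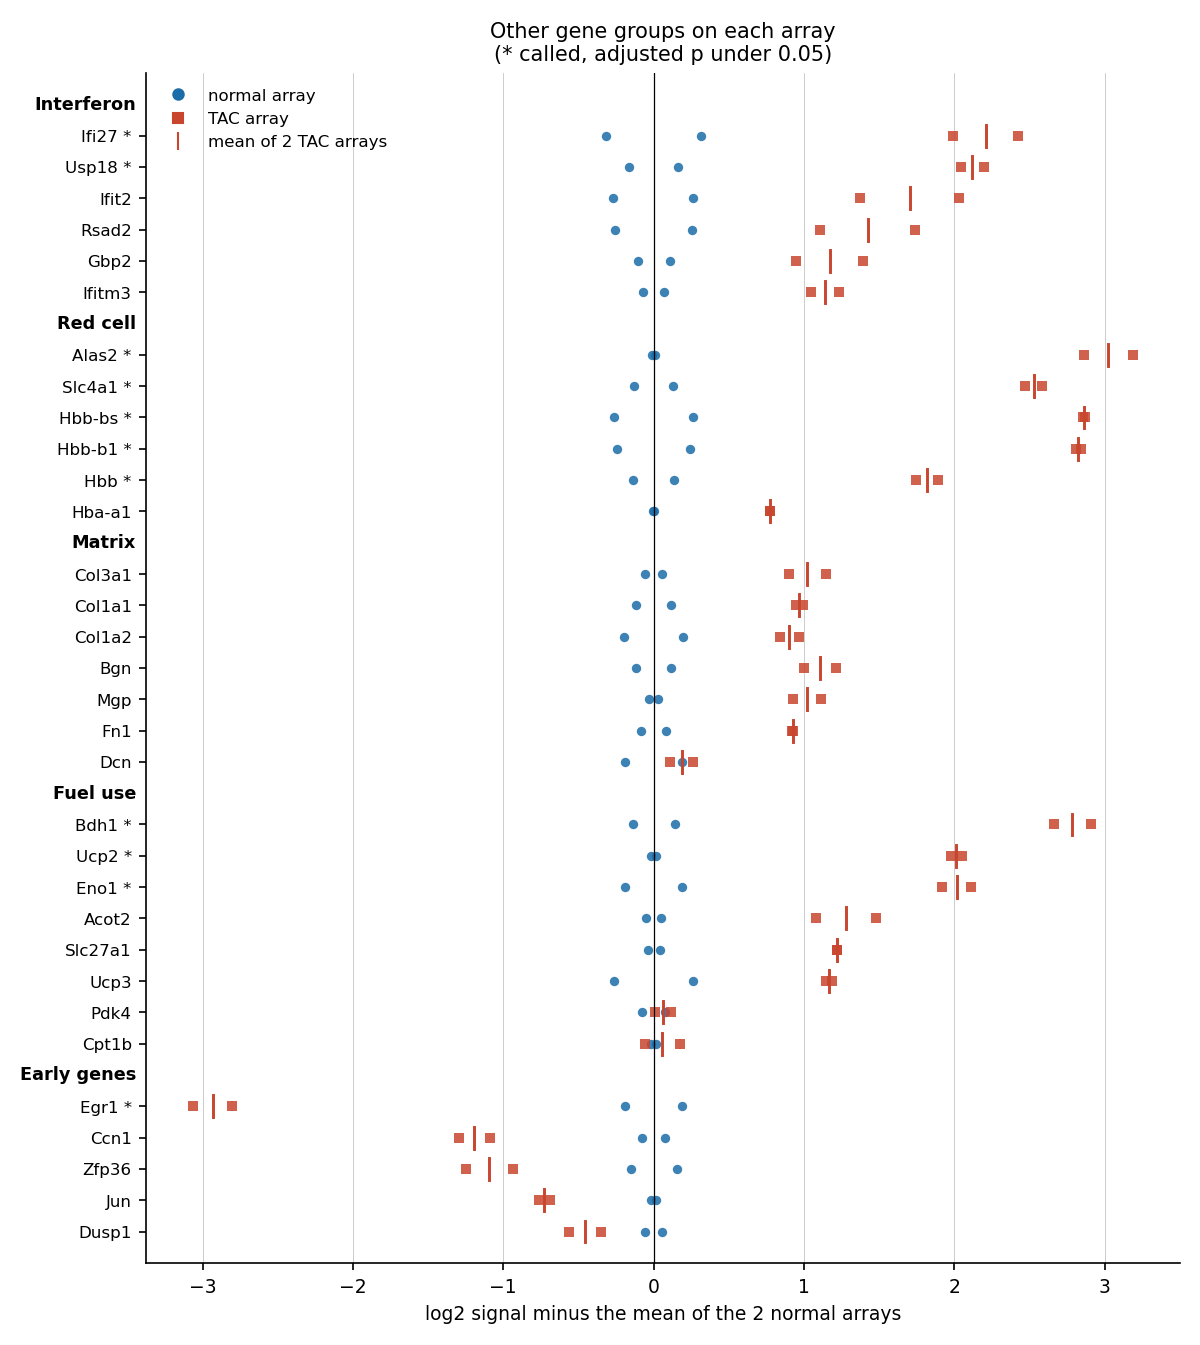
Each row is a gene, and the x axis gives the log2 signal of each array minus the mean of the 2 normal arrays. Blue circles are normal arrays, red squares TAC arrays, red bars the mean of the 2 TAC arrays, and asterisks mark called genes. Called red cell genes, Bdh1, Ucp2 and Eno1 lie to the right and Egr1 to the left. The matrix genes other than Dcn lie between 0.90 and 1.11 on average and are not called, and Pdk4 and Cpt1b lie near 0.

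Red cell genes held 5 rises, more than any other of the 44 lists, whereas 0.519% of all genes above background rose. The count is not of separate genes in full, since Hbb, Hbb-b1 and Hbb-bs among the 5 can share probes. Alas2 and Slc4a1 passed the floor through the TAC arrays alone. Of 29 listed genes of red cells and haem, 23 were measured and 16 were above background, of which 5 rose and 0 fell, and 15 lay above without overlap. The median was 0.73, and 0.67 at the bound. Alas2, which starts the making of haem in young red cells, had 6.77 and 6.80 on the normal arrays and 9.97 and 9.65 on the TAC arrays. It was at least 2.49-fold higher (limma, adjusted p = 0.00341), and AGATAA stands in the promoter stretch shown. Slc4a1, the red cell membrane protein that exchanges chloride for bicarbonate, had 7.25 and 7.51 on the normal arrays and 9.96 and 9.85 on the TAC arrays and was at least 2.66-fold higher (limma, adjusted p = 0.00341).

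The globins followed. Hbb-bs had 10.51 and 11.04 on the normal arrays and 13.65 and 13.64 on the TAC arrays and rose 7.29-fold (limma, adjusted p = 0.00344). Hbb-b1 had 13.57 and 14.05 on the normal arrays and 16.62 and 16.65 on the TAC arrays and rose 7.09-fold (limma, adjusted p = 0.00341). Hbb had 17.50 and 17.78 on the normal arrays and 19.53 and 19.38 on the TAC arrays, and the beta-like gene Hbbl1 had 14.61 and 14.89 on the normal arrays and 16.66 and 16.56 on the TAC arrays. They rose 3.53-fold and 3.64-fold (limma, adjusted p = 0.0165 and 0.0132), and the alpha-globin gene Hba-a1 had 19.15 and 19.16 on the normal arrays and reached the ceiling on the TAC arrays. Beta-globin rows can share probes, so they are not separate evidence.

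Lgals5 and Car2, called outside the list, are also known from red cells. Lgals5, a galectin that rat reticulocytes carry, had 7.04 and 5.66 on the normal arrays and 9.80 and 10.004 on the TAC arrays. Its normal arrays were far apart but within background, and it was at least 2.65-fold higher (limma, adjusted p = 0.0114). Car2, a carbonic anhydrase abundant in red cells, had 7.29 and 7.17 on the normal arrays and 8.93 and 8.93 on the TAC arrays and was at least 1.35-fold higher (limma, adjusted p = 0.0154). Genes of haem and iron that most cells use had smaller differences, Fech, the last enzyme of haem synthesis, being at 0.23 ± 0.25 and the transferrin receptor Tfrc at 0.63 ± 0.23. The red cell markers summed to 19.58 and 19.66 log2 units on the normal arrays and 20.835 and 20.78 on the TAC arrays, with Epb42 below the floor. Hba-a1, a member of this sum, was at the ceiling on the TAC arrays, so that the TAC sums are lower bounds. Blood left in the tissue and its part in these rises were not tested.

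Early response genes, which a cell switches on within minutes of a stimulus, were low on the arrays labelled TAC. Only 9 of 30 measured were above background, of which 1 fell, 6 lay below without overlap and 0 above, with a median of -0.45, or -0.215 over all 30. Egr1, a zinc finger factor induced through Srf, had 13.62 and 14.004 on the normal arrays and 11.01 and 10.75 on the TAC arrays. It fell by 2.93 ± 0.24 log2 units, 7.64-fold (limma, adjusted p = 0.00341). Zfp36, which speeds the decay of cytokine transcripts, had 10.92 and 10.61 on the normal arrays and 9.83 and 9.52 on the TAC arrays, a difference of -1.09 ± 0.29, and Jun had 10.54 and 10.57 on the normal arrays and 9.79 and 9.86 on the TAC arrays, a difference of -0.73 ± 0.21. Neither passed (limma, adjusted p = 0.275 and 0.311). Dusp1, a phosphatase of MAP kinases, was at -0.45 ± 0.22. Fos was within background by its group means, at 7.38 and 8.61 on the normal arrays and 6.65 and 6.58 on the TAC arrays.

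Targets of glucocorticoids overlapped with these in part and had a median of -0.30 over 12 genes above background, with 6 below and 0 above without overlap and none called. Zbtb16, a factor that steroids induce strongly, had 8.81 and 8.84 on the normal arrays and 7.82 and 7.75 on the TAC arrays and was at least 1.57-fold lower, without passing (limma, adjusted p = 0.191). The kinase Sgk1 differed by -0.96 ± 0.28 and the receptor Nr3c1 by -0.35 ± 0.22. Other common targets did not follow, Fkbp5 overlapping at -0.25 ± 0.25 and Tsc22d3 at 0.23 ± 0.23.

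Clock genes pointed both ways. The repressor Per1 lay below, with 9.48 and 9.61 on the normal arrays and 9.02 and 8.62 on the TAC arrays, whereas Bmal1, an activator whose transcript peaks at the opposite time of day, had 9.66 and 9.71 on the normal arrays and 10.79 and 9.99 on the TAC arrays. Npas2, a partner of Bmal1, and Nr1d1, its repressor, lay above at 0.71 ± 0.28 and 0.79 ± 0.29, each with 1 normal array in background. No clock gene was called, and the median was 0.43 over 9 above background, or 0.18 at the bound. The hour at which the hearts were taken is not given in the sources used here, and its part was not tested.

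Protein turnover and synthesis were near the median of all genes. The 67 ribosomal protein genes above background had a median of 0.01 and 17 translation factors 0.05, with none called. Rpl38 and Rps28 were the extremes, at 0.92 ± 0.22 and -0.62 ± 0.29. Proteasome, atrophy ligase and autophagy genes had a median of 0.15 over 32, with none called. The atrophy ligases Trim63 and Fbxo32 differed in sign, at -0.42 ± 0.23 and 0.33 ± 0.21, and the protease Ctsb and the autophagy receptor Sqstm1 did too, at 0.68 ± 0.22 and -0.60 ± 0.21. Heat shock genes had a median of -0.01 over 22 and endoplasmic reticulum stress genes -0.08 over 17. Of the latter, Dnajb9 and Herpud1, both induced by unfolded protein, lay below without overlap, at -0.73 ± 0.25 and -0.70 ± 0.23.

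Growth and death genes held no call. Over 7 cell cycle genes above background the median was 0.255, or 0.115 without TAC replicate 1 and 0.40 without TAC replicate 2, with Ccnd1, a cyclin that opens the cycle, at 0.87 ± 0.23, and 20 of 27 measured cycle genes lay in background. The p53 and cell death genes had a median of -0.075 over 6, and the hypoxia and nitric oxide genes 0.03 over 10. Of 16 measured genes of the neuromuscular junction and of denervated muscle, 3 were above background and none of these was called. Ncam1, an adhesion molecule, had 11.13 and 10.95 on the normal arrays and 12.13 and 11.998 on the TAC arrays, a difference of 1.03 ± 0.28 that did not pass.

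**Figure D4:**
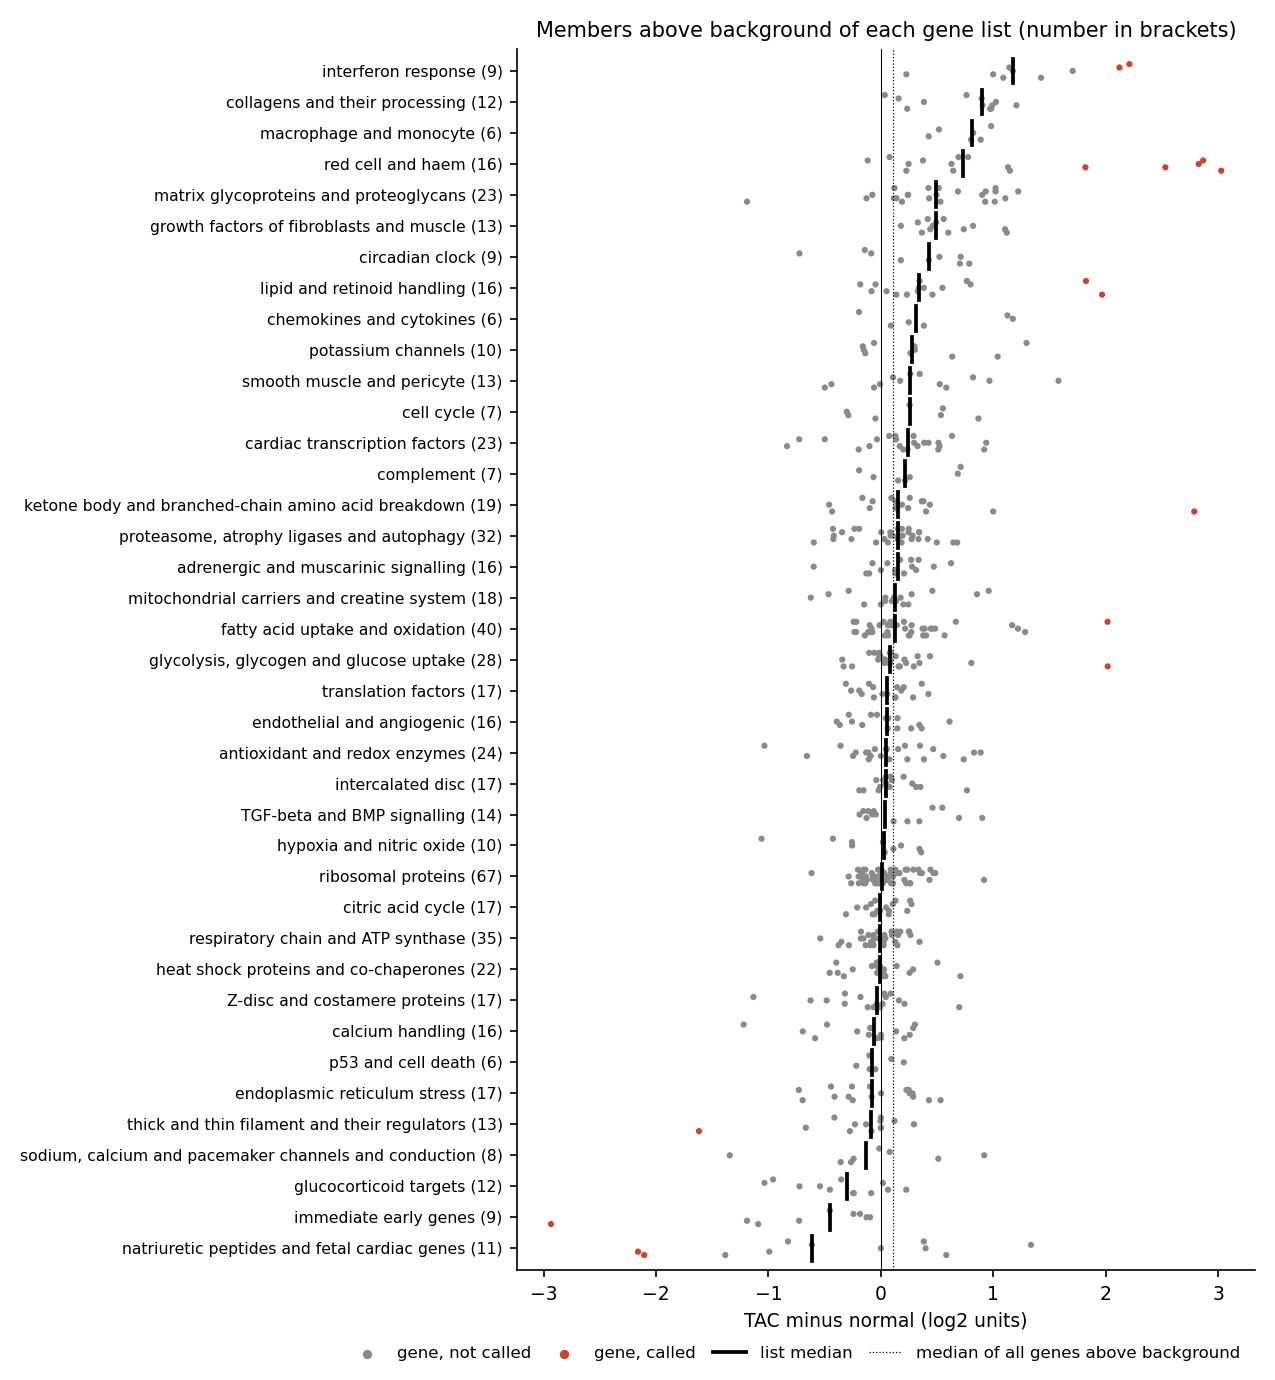
Each row is a gene list with at least 5 members above background, their number in brackets, and each point is a member's difference, TAC minus normal, in log2 units. Red points are called genes, black bars list medians, and the dotted line the median of 0.11 over all genes above background. Interferon response, collagens, macrophage and red cell lists have the highest medians as plotted, and natriuretic and fetal, immediate early and glucocorticoid lists the lowest. Ribosomal proteins, the citric acid cycle and the respiratory chain lie near 0. The rank of the collagens is not kept with genes in background at their bound. Their median is then 0.255, below the growth factors (0.462) and the matrix glycoproteins (0.429).

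The remaining called genes above background belonged to no list. Cryl1, an enzyme of the sugar acid pathway, had 10.49 and 10.74 on the normal arrays and 7.95 and 8.30 on the TAC arrays and fell 5.62-fold, or 5.11-fold with the TAC array in background set at its control percentile (limma, adjusted p = 0.00466). Rab18, a small GTPase of lipid droplets and the endoplasmic reticulum, had 11.50 and 12.06 on the normal arrays and 10.11 and 10.20 on the TAC arrays and fell 3.08-fold (limma, adjusted p = 0.0491). Iqcm had 9.85 and 10.39 on the normal arrays and 8.48 and 8.09 on the TAC arrays, and Tmem179, a transmembrane protein, had 9.88 and 9.80 on the normal arrays and 8.44 and 8.24 on the TAC arrays. They fell 3.57-fold, or 3.53-fold with the TAC array in background at its control percentile, and 2.83-fold (limma, adjusted p = 0.032 and 0.0452). Spryd7 had 10.41 and 11.10 on the normal arrays and 12.80 and 12.66 on the TAC arrays and rose 3.93-fold (limma, adjusted p = 0.043). Cntnap1, known from the nodes of myelinated axons, had 6.06 and 6.59 on the normal arrays and 8.63 and 8.26 on the TAC arrays and was called (limma, adjusted p = 0.0165), with no fold to be given.

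Of the 59 called rows, 21 lay within background in both groups and 12 of these had a symbol, so that a direction but no size can be given. Besides the interferon genes above, Alox15, which oxidises arachidonic acid, had 4.84 and 4.59 on the normal arrays and 7.66 and 8.24 on the TAC arrays, and Chrna1, part of the acetylcholine receptor at the motor endplate, had 5.26 and 5.05 on the normal arrays and 7.48 and 8.16 on the TAC arrays. Fgf7, a growth factor of stroma, and Cnn1, calponin of smooth muscle, were called in the same direction (limma, adjusted p = 0.0119 and 0.0319). The lymphatic chemokine Ccl21 had 7.44 and 6.52 on the normal arrays and 4.32 and 4.24 on the TAC arrays, and the sphingomyelin synthase Sgms2 and the olfactory receptor Or4k46 were also called lower (limma, adjusted p = 0.0154, 0.0114 and 0.0491).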

How the data were processed

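Total RNA labelled as whole heart had been hybridised to Clariom S Rat arrays, 1 array per sample and 2 per group. Per the labels, the authors ran a core-exon analysis in Expression Console that gave robust multi-array average (RMA) values. The deposited log2 values stop at 19.9315. The sources used here name no software version. RMA makes the distributions of arrays alike, which hides any change common to all transcripts.

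Of 24834 rows, 1646 control rows were left out of the tests, 1153 of them negative controls. The 23188 others were fitted with limma 3.58.1 (R 4.3.3) on all 6 arrays, 1 mean per group, no covariate, contrast TAC minus normal, empirical Bayes moderation, Benjamini-Hochberg adjustment. Medians of the tested rows were 5.33 to 5.39 on the 4 arrays. Where 10 genes had several rows, the row with the highest mean stood for the gene. A fold against a group within background was taken against the mean 95th percentile of its negative controls (8.50 normal, 8.17 TAC). Named were all called genes above background, the 15 highest and 15 lowest non-overlapping differences, up to 4 members of each of 44 lists with the largest differences and members showing where a list did not move, and 12 called genes in background. Members and lists were chosen with earlier results of these data known. Lists were described by counts and medians, without a test. The markers of nerve, adipose, epicardial, skeletal muscle and thymus cells that were measured were all below the floor, and lymphatic markers summed to 10.83 and 10.39 on the normal and 10.70 and 10.665 on the TAC arrays. The limma contrast, but not the other steps, was tried on simulated arrays with planted changes and the spreads of rows shuffled. The number of arrays limits the precision.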

Additional observations from a re-analysis of the deposited data

How the results depend on the processing

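The 59 called rows, and the 38 among them above background, became 170 and 131 with an intensity trend in limma's moderation. They became 35 and 26 in a fit of the normal and TAC arrays alone, and 38 and 26 with control rows kept. Leaving out rows below the control percentile or below the median of all rows gave 70 and 63 called rows above background, and a floor at the 99th percentile gave 17. Leaving out 1 array gave 0 to 35 called rows and 0 to 26 above background, with limma calling 0 without TAC replicate 2 (2025 rows at an unadjusted p under 0.05). A replicate block gave 36 called rows and 26 above background. Replicate numbers only name the arrays: deviations of same-numbered arrays correlated at 0.01 between normal and TAC. Robust moderation, array weights, the rows at the ceiling left out and 3 other scalings, 1 of them chosen after seeing the data (medians of rows above background set equal), kept the called rows within 1.5 times, at 56 to 84. Counting rows as above background by the mean of 6 arrays, also chosen after seeing the data, gave 29. Of the 32 called genes above background, 16 were called in all 12 other fits that keep every normal and TAC array, and Car2, Lgals5 and Ephx2 in the 11 that they entered. Of the 656 list members above background, 220 changed sign in at least 1 fit, 0 of them called and none differing by more than 0.397. Those named by rank in their list were as follows. Leaving out 1 array moved Kcnj11 over -0.14 to 0.744 (lowest without normal replicate 2), Ece1 over -0.045 to 0.151 (lowest without normal replicate 1), Bcl2 over -0.096 to 0.503 (lowest without TAC replicate 1) and Hdac9 over -0.215 to 0.01 (highest without normal replicate 2). Ece1 was also at -0.036 with quantile normalization and -0.04 with medians of rows above background set equal. The cause of these changes was not tested.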

Other observations

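Of the 38 called rows above background, 6 carried no gene symbol in the platform table, 5 of them higher and 1 lower on the arrays labelled TAC. The row TC1300000822.rn.2 had 12.55 and 12.43 log2 units on the normal arrays and 9.62 and 9.63 on the TAC arrays. It fell by 2.86 ± 0.24 (limma, adjusted p = 0.00341), and both groups lay well above background. The row TC2000001816.rn.2 had 5.99 and 5.45 on the normal arrays, within background, and 8.79 and 9.06 on the TAC arrays (limma, adjusted p = 0.00469). What these rows measure is not named here.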
